A study of Mus musculus with 44 samples.

Results

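The 8 lymphatic vessel genes examined here were taken by name: the transcription factor Prox1, the receptors and surface proteins Lyve1, Flt4 and Pdpn, the secreted proteins Reln and Mmrn1, and the growth factors Vegfc and Vegfd. All 8 were among the 43411 genes measured, and all 8 were among the 17037 with a mean above 3 normalized counts that were tested. The samples were back skin biopsies from wild type female C57Bl/6 mice, 8 weeks old at the start, and RNA-seq was done on 44 of them. Bleomycin, a drug that breaks DNA and causes fibrosis of the skin, was given under the skin once a day, for 2 weeks (10 mice) or 4 weeks (10 mice). The labels give 100 µL at 1 U/mL a day, but a supplement of the study gives a lower concentration, so the dose is not settled here. Control mice received saline (10 mice), and the recovery groups had 4 weeks of bleomycin and were then left untreated for 6 weeks (6 mice) or 10 weeks (8 mice). The age at harvest and the time of harvest of the saline mice are not given in the sources used here, so age and time since injection cannot be told apart in the recovery groups.

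Lymphatic capillaries drain fluid and immune cells from the dermis. Their endothelial cells are set apart from those of blood vessels by PROX1, which turns on FLT4 (also called VEGFR3), the receptor for the growth factors VEGFC and VEGFD. LYVE1 binds hyaluronan and is found on lymphatic capillaries and also on some tissue macrophages. PDPN (podoplanin) is a mucin-like membrane protein of lymphatic endothelium that keratinocytes and fibroblasts can also make, RELN (reelin) is secreted by lymphatic endothelium and by some neurons, and MMRN1 (multimerin 1) is stored in endothelial cells and platelets. VEGFC and VEGFD are made as precursors that proteases cut into their active forms.

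The genes lie on GRCm38, the build also called mm10, at chr1:190118035-190170714 on the minus strand for Prox1 (ENSMUSG00000010175.11), chr7:110850607-110863239 minus for Lyve1 (ENSMUSG00000030787.3), chr11:49609263-49652739 plus for Flt4 (ENSMUSG00000020357.3) and chr4:143267431-143299564 minus for Pdpn (ENSMUSG00000028583.12). Reln (ENSMUSG00000042453.12) is at chr5:21884454-22344702 minus, Mmrn1 (ENSMUSG00000054641.8) at chr6:60924976-60989378 plus, Vegfc (ENSMUSG00000031520.5) at chr8:54077606-54187096 plus and Vegfd (ENSMUSG00000031380.10) at chrX:164373378-164402650 plus. Exons of Prox1 overlap those of the antisense gene Prox1os, and exons of Reln those of the antisense gene Gm10475. The strand setting used in counting is not given, so reads of these 2 pairs may not have been kept apart.

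The values are normalized counts, which are reads per gene divided by a size factor for each mouse. Each mouse had between 8509094 and 15285577 reads on genes, and the group median was 9523976 in saline mice and 12255521 after 4 weeks of bleomycin. The lowest count behind any value of Prox1 was 20 reads. Saline mouse 1 and mouse 2 of the 2-week bleomycin group had the 2 lowest median correlations with the other mice of their groups, 0.942 and 0.938, close below the range of 0.947 to 0.985 in the other 42 mice. Calls that changed without these 2 least correlated mice are given both ways, as are some of the fold changes, ratios and correlations. Other values are given with all mice only, and some of them shifted. The log2 fold change of Lyve1 at 4 weeks against saline went from 0.32 to 0.18 without the 2 mice. That of Mmrn1 after 10 weeks of recovery went from 0.17 to 0.02.

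After 4 weeks of bleomycin, 5 of the 8 lymphatic vessel genes were higher than in saline skin by more than 1.5-fold at an adjusted p below 0.05 (limma, Benjamini-Hochberg over all genes tested), and none was lower. They were Prox1, Pdpn, Reln, Mmrn1 and Vegfd, each between 1.66-fold and 1.91-fold higher. Of all genes tested, 10.5% were called higher by the same rule and 17.9% in either direction. Lyve1, Flt4 and Vegfc were not called. After 2 weeks Vegfd alone was called, where 9.3% of all genes were called higher and 16.7% in either direction, and after 6 and 10 weeks of recovery none of the 8 was called against saline. In whole skin, more or fewer cells of a type and more or less RNA per cell cannot be told apart.

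**Figure D1:**
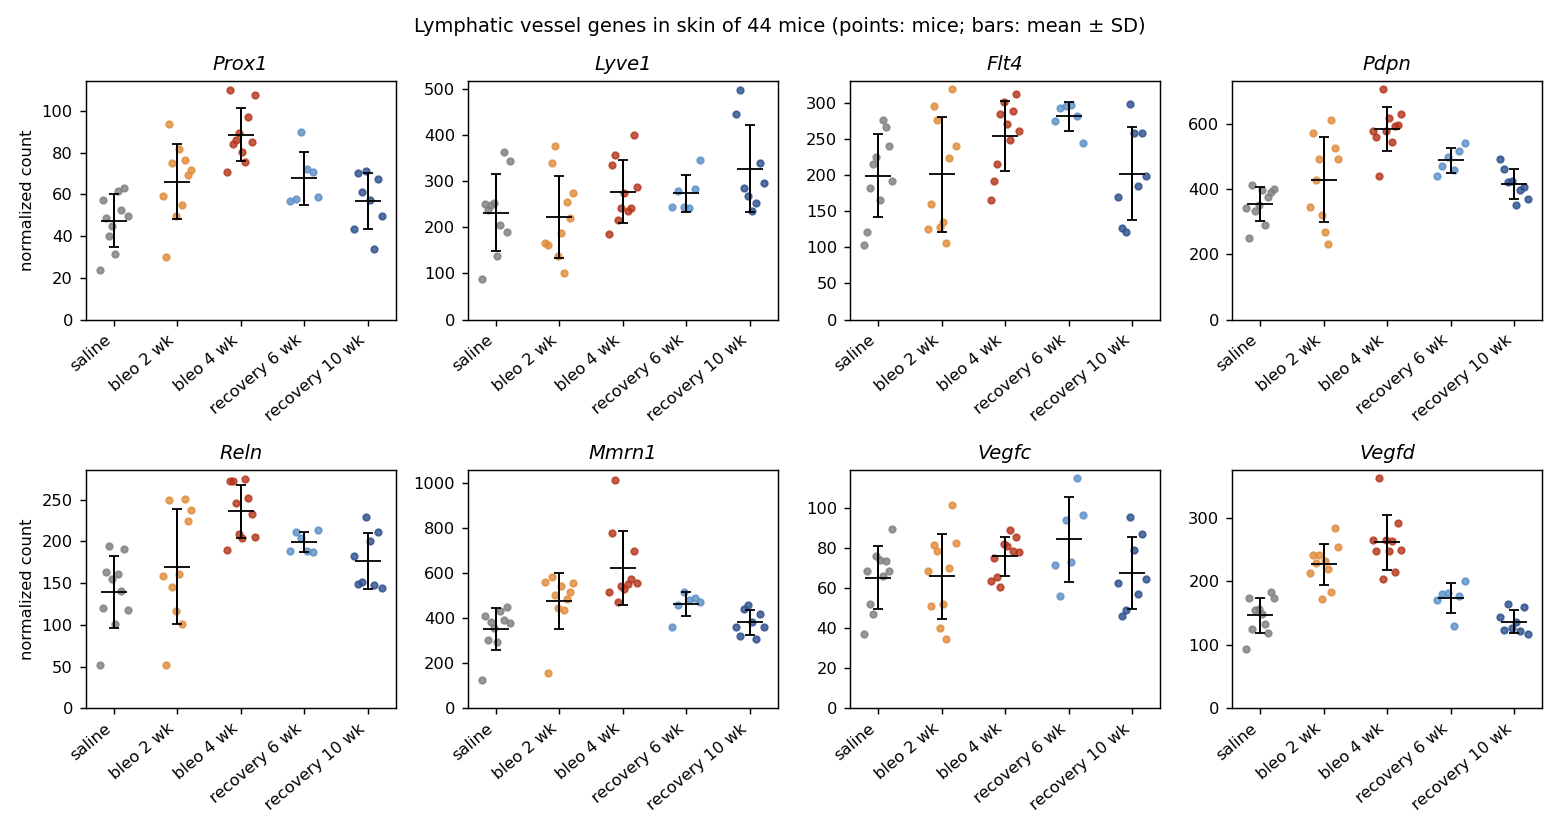
Normalized counts (y axes, linear, from 0) of the 8 genes in each of the 44 mice by group (x axes), with the mean and SD of each group as bars. The 10 mice given bleomycin for 4 weeks lie above all 10 saline mice for Prox1, Pdpn, Mmrn1 and Vegfd, as for 4.31% of all genes tested. These 2 groups overlap for Lyve1, Flt4 and Vegfc, and for Reln, where 9 of 10 mice lie above every saline mouse.

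Prox1, the gene of the factor that specifies lymphatic endothelium, had 23.8 to 62.9 normalized counts in saline mice, with a median of 49.2. After 2 weeks of bleomycin its values ran from 29.9 to 93.6 (median 70.4), and after 4 weeks from 70.9 to 110 (median 85.7). All 10 mice at 4 weeks were above every saline mouse, as were 6 of the 10 at 2 weeks. The mean rose from 47.3 ± 12.7 (SD, n = 10) to 88.6 ± 12.8 (SD, n = 10) at 4 weeks, a log2 fold change of 0.93 ± 0.16 (SE) with an adjusted p of 1.06e-05. At 2 weeks the log2 fold change was 0.47 ± 0.16 (SE), with an adjusted p of 0.02 but below the 1.5-fold limit. After 6 weeks of recovery Prox1 ran from 56.9 to 89.9 normalized counts (median 64.7) and after 10 weeks from 33.7 to 71.2 (median 59.1). Both recovery groups overlapped the saline group, with log2 fold changes of 0.54 (adjusted p = 0.0584) and 0.27 (adjusted p = 0.423).

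Flt4, the receptor of VEGFC and VEGFD, did not pass the test against saline in any group. Its normalized counts ran from 104 to 276 in saline mice (median 204), from 107 to 319 at 2 weeks (median 192) and from 166 to 312 at 4 weeks (median 266). After 6 weeks of recovery all 6 mice lay between 244 and 297 (median 288), a mean of 281 ± 20.0 (SD, n = 6) against 199 ± 57.5 (SD, n = 10) in saline mice. That was the narrowest Flt4 range of the 5 groups, and 4 of the 6 mice were above every saline mouse. The log2 fold change against saline was 0.56 ± 0.22 (SE) with an adjusted p of 0.0952, and at 4 weeks of bleomycin it was 0.39 ± 0.19 (SE) with an adjusted p of 0.105. After 10 weeks of recovery Flt4 ran from 121 to 298 normalized counts (median 191), a range that overlapped that of saline mice, with a log2 fold change of 0.02.

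Lyve1, the hyaluronan receptor, had the largest coefficient of variation of the 8 genes among saline mice, 36.1%, with 88.2 to 363 normalized counts (median 243). It ran from 101 to 377 at 2 weeks (median 204), from 186 to 401 at 4 weeks (median 258) and from 243 to 345 after 6 weeks of recovery (median 262). The groups overlapped throughout, and the largest log2 fold change against saline in these 3 groups was 0.32. After 10 weeks of recovery its values ran from 236 to 497 (median 290), and all 8 mice were above the saline mean. The log2 fold change there was 0.55 ± 0.22 (SE), the largest of the 4 against saline for this gene, with an adjusted p of 0.128. Its level after 10 weeks of recovery was 0.62 higher on the log2 scale than after 2 weeks of bleomycin (limma, adjusted p = 0.0233). These were its highest and lowest groups, a pair picked after the levels were known, and the p does not allow for that choice.

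Pdpn, the podoplanin gene, had 250 to 412 normalized counts in saline mice (median 364). It spread from 232 to 612 at 2 weeks (median 459), where 6 mice were above and 1 mouse was below every saline mouse. At 4 weeks all 10 mice, from 441 to 707 (median 585), were above every saline mouse. The means were 354 ± 52.2 and 584 ± 67.5 (SD, n = 10 each), a log2 fold change of 0.73 ± 0.12 (SE) with an adjusted p of 5.17e-06. After 6 weeks of recovery the 6 mice, from 439 to 542 (median 484), were still all above the saline mice. The log2 fold change was 0.47 ± 0.14 (SE), with an adjusted p of 0.0259 but below the 1.5-fold limit. Groups that do not overlap in this direction were found for 1.41% of all genes in that comparison and for 4.31% at 4 weeks. After 10 weeks of recovery Pdpn ran from 351 to 493 normalized counts (median 413), overlapping the saline group, with a log2 fold change of 0.24 (adjusted p = 0.319).

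Reln, the reelin gene, had 52.5 to 195 normalized counts in saline mice (median 148) and 52.0 to 251 at 2 weeks (median 160). At 4 weeks it ran from 190 to 275 (median 239), with 9 of 10 mice above every saline mouse. The means were 140 ± 43.4 and 236 ± 32.2 (SD, n = 10 each), a log2 fold change of 0.82 ± 0.20 (SE) with an adjusted p of 0.000895. After 6 weeks of recovery Reln ran from 188 to 214 (median 197), and after 10 weeks from 144 to 230 (median 167). All mice of both recovery groups were above the saline mean, and both groups overlapped the saline range. The log2 fold changes were 0.59 ± 0.23 (SE, adjusted p = 0.0933) and 0.40 ± 0.21 (SE, adjusted p = 0.3).

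Mmrn1, the multimerin 1 gene, had 128 to 451 normalized counts in saline mice (median 381) and 155 to 582 at 2 weeks (median 509). At 4 weeks it ran from 473 to 1016 (median 555), and all 10 mice were above every saline mouse. The means were 353 ± 93.6 and 624 ± 165 (SD, n = 10 each), a log2 fold change of 0.85 ± 0.18 (SE) with an adjusted p of 0.000168. At 2 weeks 7 of 10 mice were above every saline mouse, and the log2 fold change of 0.43 ± 0.18 (SE) had an adjusted p of 0.0554. Without the 2 least correlated mice it was 0.45 (limma, adjusted p = 0.000832), still below the 1.5-fold limit. Mmrn1 then ran from 361 to 516 after 6 weeks of recovery (median 476) and from 307 to 460 after 10 weeks (median 374). Both groups overlapped the saline mice, with log2 fold changes of 0.45 (adjusted p = 0.161) and 0.17 (adjusted p = 0.7).

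The 2 lymphangiogenic ligands did not follow the same course. Vegfd had 94.2 to 183 normalized counts in saline mice (median 152), 172 to 284 at 2 weeks (median 231) and 204 to 363 at 4 weeks (median 257). All 10 mice at 4 weeks and 9 of 10 at 2 weeks were above every saline mouse. The means were 146 ± 28.2, 227 ± 32.6 and 261 ± 43.6 (SD, n = 10 each). The log2 fold changes against saline were 0.64 ± 0.10 (SE, adjusted p = 2.9e-06) at 2 weeks and 0.84 ± 0.10 (SE, adjusted p = 1.15e-08) at 4 weeks. Vegfd ran from 130 to 201 after 6 weeks of recovery (median 179) and from 118 to 164 after 10 weeks (median 132), so that both groups overlapped the saline mice. Their log2 fold changes were 0.26 (adjusted p = 0.169) and -0.08 (adjusted p = 0.771).

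Vegfc, the paralog of Vegfd, was not called in any comparison. Its normalized counts ran from 37.0 to 89.2 in saline mice (median 68.6), from 34.4 to 101 at 2 weeks (median 69.0) and from 60.4 to 88.9 at 4 weeks (median 78.1). They ran from 56.1 to 115 after 6 weeks of recovery (median 83.4) and from 46.2 to 95.3 after 10 weeks (median 63.3). The groups overlapped in every comparison with saline, where the largest log2 fold change was 0.37 ± 0.19 (SE, adjusted p = 0.218), after 6 weeks of recovery.

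**Figure D2:**
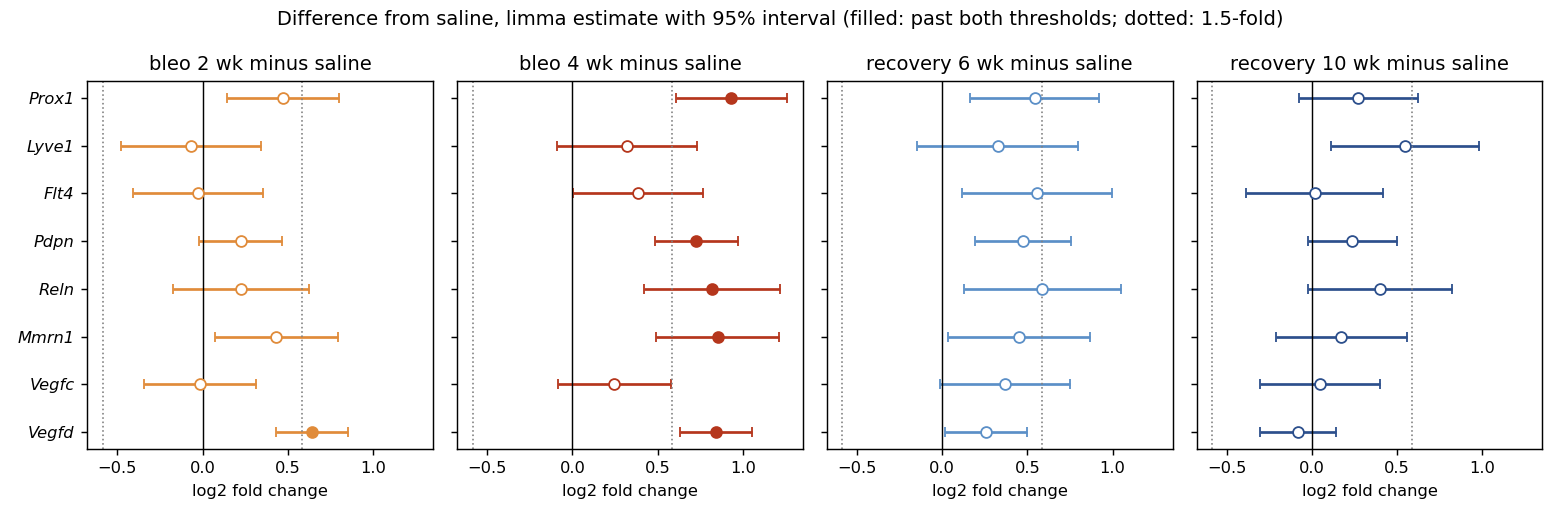
Log2 fold changes against saline on the log2(normalized count + 1) scale (x axes) of the 8 genes (y axis) in the 4 comparisons, as limma estimates with 95% intervals; filled points passed both the 1.5-fold and the adjusted p thresholds, and dotted lines mark 1.5-fold. Filled points are Vegfd at 2 weeks and Prox1, Pdpn, Reln, Mmrn1 and Vegfd at 4 weeks of bleomycin.

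The 2 ligands were therefore compared within each mouse, as the log2 ratio of Vegfd to Vegfc. This comparison was chosen after the levels were known, and its p values do not allow for that choice. The ratio was 1.17 ± 0.29 (SD, n = 10) in saline mice, 1.83 ± 0.41 (SD, n = 10) at 2 weeks and 1.77 ± 0.29 (SD, n = 10) at 4 weeks. All 10 mice of each bleomycin group were above the saline mean, and the differences of 0.66 (permutation test, adjusted p = 0.00432) and 0.60 (permutation test, adjusted p = 0.00352) passed the test. After recovery the ratio was 1.06 ± 0.37 (SD, n = 6) and 1.04 ± 0.41 (SD, n = 8), with differences from saline of -0.11 and -0.13 (exact permutation tests, adjusted p = 0.542 and 0.507). The adjustment covers 16 two-sided comparisons, of 4 ratios in 4 comparisons with saline.

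Prox1 was also set against Flt4 and Lyve1, which were themselves not called. This choice was made after the levels were known, and the p values do not allow for it. Ratios of Prox1 to Pdpn, Reln and Mmrn1, which were called along with Prox1, were not tested. The log2 ratio of Prox1 to Flt4 was 0.55 higher at 4 weeks than in saline mice (permutation test, adjusted p = 0.0167), and that of Prox1 to Lyve1 was 0.61 higher (permutation test, adjusted p = 0.0144). In both, all 10 mice at 4 weeks were above the saline mean. At 2 weeks Prox1 gained 0.50 on Flt4 (permutation test, adjusted p = 0.0796) and 0.54 on Lyve1 (adjusted p = 0.0511), and these became 0.59 (adjusted p = 0.0399) and 0.66 (adjusted p = 0.0197) without the 2 least correlated mice. The log2 ratio of Prox1 to Pecam1, which is made by endothelium of blood and lymphatic vessels alike, did not pass in any group: the difference at 4 weeks was 0.19 (permutation test, adjusted p = 0.344).

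**Figure D3:**
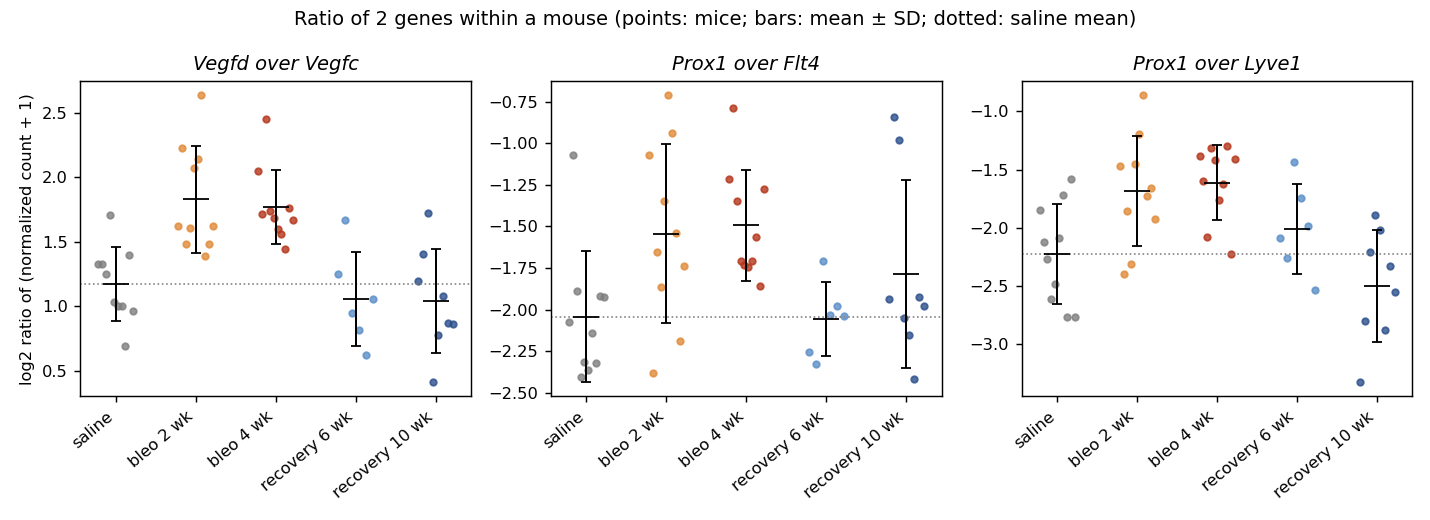
Log2 ratio of 2 genes within each mouse (y axes) by group (x axes), with the mean and SD of each group as bars and the saline mean dotted. All 10 mice at 4 weeks of bleomycin lie above the saline mean in each of the 3 panels, and for Vegfd over Vegfc so do all 10 at 2 weeks.

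The sequences before the start sites of the 2 ligand genes are shown because these paralogs differed in response. They are the 250 bases before the RefSeq start on GRCm38.p6, chrX:164373272-164373521 for Vegfd and chr8:54077282-54077531 for Vegfc, both on the plus strand, written 5′ to 3′. The RefSeq and GENCODE starts differ. The RefSeq start of Vegfd lies 144 bases inside the gene as placed above, so that the last 144 bases of its window, including the TATA box match, are within that gene, while the Vegfc window ends before the gene. Capitals mark matches on either strand to a motif: TATAAA is the core of the TATA box, found shortly before the start of some genes. The GC box, bound by SP1 and its relatives, was searched as GGGCGG.
Vegfd: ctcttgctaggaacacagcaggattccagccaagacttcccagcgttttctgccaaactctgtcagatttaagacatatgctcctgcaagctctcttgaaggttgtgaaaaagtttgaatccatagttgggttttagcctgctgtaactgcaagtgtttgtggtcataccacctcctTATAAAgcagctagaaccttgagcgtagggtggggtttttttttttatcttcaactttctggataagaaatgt
Vegfc: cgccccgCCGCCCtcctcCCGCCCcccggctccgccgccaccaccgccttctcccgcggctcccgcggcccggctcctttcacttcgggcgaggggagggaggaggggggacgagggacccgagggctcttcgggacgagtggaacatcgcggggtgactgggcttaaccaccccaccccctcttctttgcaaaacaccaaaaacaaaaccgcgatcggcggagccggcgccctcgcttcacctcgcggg
The Vegfd sequence held 1 TATA box match, no GC box match and 42.4% G and C. The Vegfc sequence held no TATA box match, 2 GC box matches and 71.6% G and C. Over 32851 RefSeq promoters of this length, 12.4% held a TATA box match, 32.7% a GC box match, and the median was 52.4% G and C. The AP-1 motif TGANTCA, held by 6.75% of them, was absent from these windows of the 7 lymphatic vessel genes with an entry, although the windows of Flt4, Mmrn1 and 1 of the 2 starts of Prox1 lie wholly inside their GENCODE genes. In the same windows, GC box matches were held by 4 of the 7 genes: Prox1 and Reln, called at 4 weeks, and Flt4 and Vegfc, not called. TATA box matches were held by 2 genes, Prox1 and Vegfd. These are matches of letters, no binding was measured, and a link between these sequences and the response was not tested.

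Ordered by mean level on the log2 scale, the 4-week bleomycin group was highest for Prox1, Pdpn, Reln, Mmrn1 and Vegfd, the 6-week recovery group for Flt4 and Vegfc, and the 10-week recovery group for Lyve1. Saline mice were lowest for Prox1, Pdpn, Reln and Mmrn1, the 2-week group was lowest for Lyve1, Flt4 and Vegfc, and the 10-week recovery group for Vegfd. Of the 32 steps between neighbouring groups in these orders, 1 passed an adjusted p of 0.05: Vegfd was 0.38 higher on the log2 scale at 2 weeks of bleomycin than after 6 weeks of recovery (adjusted p = 0.0118). For the other 31 steps the difference in means did not pass this test, which does not show that the neighbours were equal. Levels in saline mice were also counted per kilobase of exon, with all annotated exons of a gene joined. The joined length, 23738 bases for Reln, can exceed that of the RNA made, so this order depends on the annotation. Counted this way, the level was 195 for Pdpn, 79.5 for Lyve1, 60.8 for Vegfd, 60.1 for Mmrn1, 26.6 for Vegfc, 24.2 for Flt4, 5.88 for Reln and 5.64 for Prox1.

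Between 2 and 4 weeks of bleomycin none of the 8 genes was called, where 2.35% of all genes were called in either direction. All 8 had positive log2 fold changes, from 0.20 for Vegfd to 0.60 for Reln, as did 49.2% of all genes, and 5 were higher at an unadjusted p below 0.05, as were 10.4% of all genes. Because many of the 8 genes varied together within groups, they are not independent results. Pdpn was 0.50 ± 0.12 (SE) higher at 4 weeks with an adjusted p of 0.00979, below the 1.5-fold limit. edgeR and DESeq2 on the recovered reads also called none.

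After 6 weeks of recovery, Vegfd no longer overlapped the 4-week group. Its log2 fold change of -0.58 ± 0.12 (SE) had an adjusted p of 0.000269 and lay just short of the 1.5-fold limit, and edgeR and DESeq2 each called it lower. Of all genes, 7.14% were called lower in this comparison and 5.77% were lower without overlap. None of the other 7 had an adjusted p below 0.05, with log2 fold changes from -0.40 for Mmrn1 to 0.17 for Flt4.

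The comparison of 10 weeks of recovery with 4 weeks of bleomycin was made after the other results were known. Prox1, Mmrn1 and Vegfd were called lower, where 9.1% of all genes were called lower. The log2 fold changes were -0.66 ± 0.17 (SE, adjusted p = 0.00248) for Prox1, -0.68 ± 0.19 (SE, adjusted p = 0.00462) for Mmrn1 and -0.92 ± 0.11 (SE, adjusted p = 7.49e-09) for Vegfd. The groups did not overlap for Mmrn1 and Vegfd, which 5.25% of all genes shared in this direction. Pdpn was lower by a log2 fold change of -0.49 ± 0.13 (SE, adjusted p = 0.00265), below the 1.5-fold limit, and Lyve1 had a log2 fold change of 0.23 (adjusted p = 0.451). Without mouse 6 of the 10-week recovery group, the log2 fold change of Prox1 was -0.56, below the 1.5-fold limit.

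Against saline, none of the 8 was called after 6 weeks of recovery, where 5.04% of all genes were called. All 8 had positive log2 fold changes, as did 49.6% of all genes, and 6 were higher at an unadjusted p below 0.05, as were 12.2% of all genes. Their median log2 fold change was 0.46, against 0.00 over all genes tested. Without the 2 least correlated mice the log2 fold changes ran from 0.18 for Lyve1 to 0.47 for Pdpn. Many of the 8 genes varied together within groups, so they are not independent results. After 10 weeks of recovery, where 3.05% of all genes were called, 1 of the 8 (Lyve1) was higher at an unadjusted p below 0.05, as were 10.4% of all genes. edgeR and DESeq2 called none in either comparison. Between 6 and 10 weeks of recovery none was called by limma, edgeR or DESeq2, where 0.088% of all genes were called, and 2 were lower at an unadjusted p below 0.05, as were 5.2% of all genes. The comparisons with saline share the same 10 control mice.

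The call of Vegfd at 2 weeks depended on single mice. Without saline mouse 1 its log2 fold change was 0.58 (adjusted p = 7.46e-06), just short of the 1.5-fold limit, and without both of the least correlated mice it was 0.56 (adjusted p = 1.75e-05). Without mouse 2 of the 2-week group, Prox1 and Mmrn1 passed as well, at log2 fold changes of 0.59 and 0.60. The 5 calls at 4 weeks were made without any 1 of the 44 mice.

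Mouse-to-mouse variation within groups was shared by many of the genes. The share of such pairs among all genes was not computed, so the counts below do not set these genes apart from others. With group means taken off, 18 of the 28 pairs had a positive correlation with an adjusted p below 0.05 (permutation within groups, adjusted over 28 pairs), and 0 pairs had a negative one, also at an unadjusted p below 0.05. The highest were Reln with Mmrn1 (r = 0.79, rho = 0.57, adjusted p = 9.33e-05), Prox1 with Mmrn1 (r = 0.75, rho = 0.64, adjusted p = 9.33e-05), Prox1 with Reln (r = 0.71, rho = 0.50, adjusted p = 0.00042) and Flt4 with Vegfc (r = 0.69, rho = 0.64, adjusted p = 9.33e-05), each over 44 mice. Without the 2 most extreme mice for the first gene of each pair, r was 0.50, 0.54, 0.47 and 0.60. Without saline mouse 1 and mouse 2 of the 2-week group, 12 of 28 pairs passed, and the same 4 pairs had r of 0.45, 0.52, 0.44 and 0.65.

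Pdpn had r of -0.04 with Prox1, 0.12 with Reln and -0.26 with Mmrn1, none of which passed. Without the 2 least correlated mice these were 0.13, 0.42 (adjusted p = 0.0809 by permutation) and -0.17, again short of the threshold. Pdpn passed with Flt4 only (r = 0.43, adjusted p = 0.0359), and without the 2 mice also with Lyve1 (r = 0.46, adjusted p = 0.0455) and Vegfc (r = 0.47, adjusted p = 0.0409), all by permutation. Vegfd passed with Lyve1 (r = 0.39), Mmrn1 (r = 0.44) and Vegfc (r = 0.40), without the 2 mice with Mmrn1 alone (r = 0.50), and its r with Flt4, the receptor, was 0.15 (adjusted p = 0.414). All genes of a mouse come from 1 biopsy and 1 library, and the part of biopsy make-up and depth in these correlations was not tested.

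**Figure D4:**
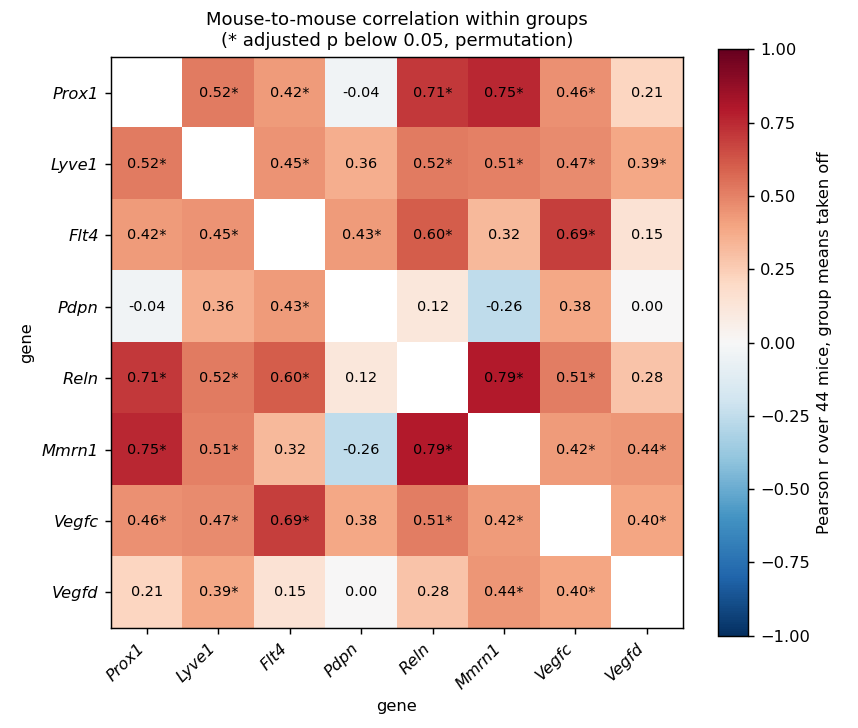
Pearson r of each pair of the 8 genes (both axes) over 44 mice after group means were taken off log2(normalized count + 1), with asterisks at an adjusted p below 0.05. Prox1, Reln and Mmrn1 share r from 0.71 to 0.79, and the Pdpn row runs from -0.26 to 0.12 with these 3 genes, where r without the 2 least correlated mice ran from -0.17 to 0.42.

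The genes most like the mean of Prox1, Lyve1, Flt4, Reln and Mmrn1 over 44 mice, group means taken off, were Sparcl1 (r = 0.91), Tns2 (0.89), Svil (0.88), Mrvi1 (0.88) and Myh11 (0.88), the last the smooth muscle myosin heavy chain. Without the 2 least correlated mice they were Tgfbr3 (r = 0.83), Sparcl1 (0.81), Dkk2 (0.81), Plpp3 (0.80) and Tns2 (0.79). Single genes had other neighbours. Flt4 was most like Pdgfrb (r = 0.92), a receptor of pericytes and fibroblasts, and Fmod (0.88), which encodes the matrix proteoglycan fibromodulin. Lyve1 was most like Pdgfra (r = 0.77) and Tgfbr3 (0.76), Vegfc like Twist1 (0.83) and C130074G19Rik (0.82), Prox1 like Insr (0.84) and 3425401B19Rik (0.84), and Reln like Lgi4 (0.90) and Zbtb4 (0.89). Mmrn1 was most like Klf9 (r = 0.91) and Plcb4 (0.91), Pdpn like Cpsf3 (0.82) and Ddost (0.82), and Vegfd like Rbl2 (0.72) and Ly6c1 (0.71). Without the 2 mice the closest gene stayed the same for Flt4 (Pdgfrb, r = 0.91), Lyve1 (Pdgfra, 0.73), Vegfc (Twist1, 0.83), Reln (Lgi4, 0.80) and Vegfd (Rbl2, 0.72). The 2 closest to Pdpn changed places (Ddost, 0.84, and Cpsf3, 0.83). Prox1 and Mmrn1 lost both neighbours and were then most like Sspn (r = 0.73) and Alpk3 (0.72) and like Ptgfr (0.79) and Cbx7 (0.75), and the second gene became Myh11 (0.79) for Reln, Sirt2 (0.81) for Vegfc and Inpp5k (0.63) for Vegfd.

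Of 18 genes that process, bind or accompany the VEGFC ligands, 4 were called higher and 1 lower at 4 weeks, 2 higher and 2 lower at 2 weeks, 2 higher and 0 lower after 6 weeks of recovery and 0 after 10 weeks, where 1 (Angpt1) had an adjusted p below 0.05. Their median log2 fold change at 4 weeks was -0.05, where that of the 8 lymphatic vessel genes was 0.77 and that of all genes tested 0.00. Calls in either direction were made for 17.9% of all genes at 4 weeks and 16.7% at 2 weeks. After 6 and 10 weeks of recovery the shares were 5.04% and 3.05%, and the counts of this list were not tested against these shares. Ccbe1, whose product helps ADAMTS3 cut pro-VEGFC, rose at 4 weeks by a log2 fold change of 0.70 ± 0.20 (SE, adjusted p = 0.0037), from a mean of 92.0 to 144 normalized counts. Adamts3 fell at 2 weeks (-1.25 ± 0.40, SE, adjusted p = 0.0128), from a mean of 9.11 to 4.05 normalized counts, and was not called at 4 weeks (-0.60, adjusted p = 0.256). Pcsk5, a proprotein convertase, fell at both times (-1.37 and -1.04).

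Placental growth factor Pgf had log2 fold changes of 1.03, 1.5 and 1.08 at 2 weeks, at 4 weeks and after 6 weeks of recovery, and was called each time. Angpt2, a ligand of the TIE2 receptor, was called in the same 3 groups (0.83, 1.34 and 0.79), and Angpt1 at 4 weeks (0.60). Nrp2, the co-receptor of FLT4, had log2 fold changes of -0.43 (adjusted p = 0.00246) at 2 weeks and -0.29 (adjusted p = 0.0427) at 4 weeks, below the 1.5-fold limit. Kdr, the receptor VEGFR2, was not called in any of the 4 comparisons, with log2 fold changes from -0.24 to 0.30.

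Of 27 other genes known from lymphatic development and valves, 4 were called higher and 3 lower at 4 weeks, 2 higher and 3 lower at 2 weeks, 2 higher and 0 lower after 6 weeks of recovery and 0 after 10 weeks. Of all genes tested, 17.9% were called in either direction at 4 weeks and 16.7% at 2 weeks. After 6 and 10 weeks of recovery the shares were 5.04% and 3.05%, and the counts of this list were not tested against these shares. Nr2f2, whose product acts with SOX18 upstream of Prox1, rose at 4 weeks (0.61, adjusted p = 0.000162) and after 6 weeks of recovery (0.82, adjusted p = 0.000236). Gata2, a factor of lymphatic valves, rose at 2 weeks (0.59) and 4 weeks (0.87). Stab2, a scavenger receptor, rose at the same times (0.78 and 1.09) at low counts, from a saline mean of 6.74, and Sema3a rose at 4 weeks (0.87). Ccl21a, a chemokine of lymphatic endothelium, rose after 6 weeks of recovery (0.68, adjusted p = 0.014). Tbx1, Gja1 and Vangl2, which skin epithelium also expresses, were lower at both bleomycin times, by log2 fold changes of -1.16, -1.22 and -0.71 at 2 weeks and -0.96, -1.23 and -0.78 at 4 weeks. Sox18 and Foxc2 were not called in any of the 4 comparisons, with log2 fold changes from -0.29 to 0.55 and from -0.14 to 0.85.

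Genes listed for some other cell types changed as well, higher in some lists and lower in others, and their part in the results was not tested. The shares of all genes called in either direction were 16.7% at 2 weeks and 17.9% at 4 weeks. They were 5.04% and 3.05% after 6 and 10 weeks of recovery. Of 14 blood endothelial genes, 4, 4, 8 and 0 were called higher at 2 weeks, at 4 weeks and after 6 and 10 weeks of recovery, and 1 lower (Cd34) at each bleomycin time, while the summed level of the list ran from 5226 to 10075 normalized counts in saline mice and from 7188 to 9771 at 4 weeks. Much of that sum was Cd34, whose mean was 4280 in saline mice and 2317 at 4 weeks. Without Cd34, in a sum added after the data were seen, the other 13 genes ran from 2704 to 5377 normalized counts in saline mice (mean 4354) and from 4532 to 7664 at 4 weeks (mean 6299). All 10 hair follicle genes found in the files, of 12 listed, were called lower at 2 and at 4 weeks and none after recovery. Their sum ranged from 2178 to 218419 normalized counts in saline mice, from 281 to 5187 at 4 weeks and from 1570 to 160251 after 10 weeks of recovery. Among saline mice, mouse 1 had the highest hair follicle sum and the lowest summed level of the 8 lymphatic vessel genes, 868. It was also lowest for the sums of the VEGFC-related, blood endothelial, macrophage, fibroblast, keratinocyte, fast muscle and Schwann cell genes. Its sum of the other lymphatic development genes was the highest, and its slow muscle and adipocyte sums lay between. In the 2-week group, mouse 2 had the highest macrophage sum, 52145, and the lowest fibroblast and slow muscle sums.

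Higher and lower calls at 4 weeks were 5 and 5 of 14 macrophage genes, 0 and 3 of 10 fibroblast genes, 0 and 0 of 8 keratinocyte genes (1 and 2 at an adjusted p below 0.05 with any fold change), 0 and 5 of 7 adipocyte genes, 5 and 0 of 5 Schwann cell genes, 5 and 0 of 7 slow muscle genes and 0 and 0 of 7 fast muscle genes. Of all genes tested, 10.5% were called higher and 17.9% in either direction at 4 weeks. No gene of these lists stayed at or under 3 reads in all mice. The 5 lymphatic calls at 4 weeks were the same without saline mouse 1 and mouse 2 of the 2-week group, at log2 fold changes of 0.83 for Prox1, 0.72 for Pdpn, 0.68 for Reln, 0.70 for Mmrn1 and 0.77 for Vegfd.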

How the data were processed

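Skin RNA of 44 mice was sequenced as 50 bp paired ends from a stranded kit. Alignment by the authors used STAR 2.4.0 and mm10, and the deposited table holds a signal per gene and mouse, counts normalized with DESeq2 1.12.3 size factors. The counting tool, strand setting and annotation are not given in the sources used here. Gene identifiers were matched to symbols and positions with GENCODE M21 (GRCm38), and all 8 genes matched. The 8 genes, the other lists and the choices of test were made with earlier results of these data known.

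The 17037 of 43411 genes whose mean exceeded 3 were tested as log2(normalized count + 1) in limma 3.58.1 in R 4.3.3 with a mean-variance trend and all 5 groups in 1 fit. Fold changes on this scale understate the change of low genes. Genes were called at a fold change above 1.5 and a Benjamini-Hochberg adjusted p below 0.05 over all genes tested. All values above 0 were whole multiples (tolerance 0.01) of 1 read in each of the 44 mice, and the recovered reads (8509094 to 15285577 per mouse) were tested with edgeR 4.0.16 and DESeq2 1.42.0. In simulated data for 4 weeks against saline (17037 genes, 200 changed), limma, edgeR and DESeq2 recovered 90%, 90% and 91% of 2-fold changes, with 3, 4 and 8 false calls. Recovery of changes below 2-fold was not tested, and the lymphatic vessel genes called at 4 weeks were 1.66-fold to 1.91-fold higher than in saline skin. False calls with a larger share of genes changed were not tested either, where 17.9% of all genes were called at 4 weeks. The reads carry no molecular identifiers, so counting error is only a lower limit on the error of a value. Replicates are labelled as separate samples, which the study describes as mice.

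Ratios used two-sided permutation tests (100000 resamples, or exact with fewer than 10 mice in a group). Pairwise correlations used two-sided permutation of mice within groups, always with 100000 resamples. The genes named are all 8, the genes called against saline in the lists (at most 5 by smallest p), Nrp2, Ccbe1, Adamts3, Kdr, Sox18, Nr2f2, Foxc2 and Ccl21a, and the genes most alike by r. Alternatives were a pseudocount of 0.1, no filter, a filter of 10 normalized counts reached by 6 mice, a lower fold change limit (0.5 on the log2 scale) or none, TMM rescaling, only the groups compared, a replicate block, edgeR, DESeq2 and 42 mice. Leaving out each mouse, the ratios and the comparison of 10 weeks of recovery with 4 weeks of bleomycin were added after seeing the data. Comparisons of the recovery groups with 2 weeks of bleomycin were not among those planned. Promoter sequences are from RefSeq (GRCm38.p6), with an entry for 7 of the 8 genes. Other steps ran in Python 3.11.15 (scipy 1.17.1, pandas 2.3.3).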

Additional observations from a re-analysis of the deposited data

Results flagged for a closer look

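Among the 40 sets of values (8 genes in 5 groups), 3 held a mouse far from the others of its group by Dixon's test, all for Mmrn1, and chance flags about 1 in 20 sets. Saline mouse 1 had 128 normalized counts, where the next lowest saline mouse had 293. Mouse 2 of the 2-week bleomycin group had 155, where the next lowest had 436. Mouse 1 of the 6-week recovery group had 361, where the next lowest had 461. The first 2 are the mice with the lowest median correlation to their groups over all genes tested.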

How the results depend on the processing

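The 5 genes called at 4 weeks of bleomycin against saline remained 5 under all 11 other settings and without any 1 of the 44 mice. At 2 weeks the count of 1 became 0 with 42 mice and 2 with no fold change threshold (Prox1, Vegfd), and ranged from 0 (without saline mouse 1) to 3 (without mouse 2 of that group) as mice were left out. After 6 weeks of recovery the 0 against saline became 1 with no fold change threshold (Pdpn), and 0 to 1 as mice were left out (1 without saline mouse 7 or 9, Prox1, or mouse 2 of the 2-week group, Reln). Between 4 and 2 weeks the 0 became 1 (Pdpn) at a log2 threshold of 0.5 and with no threshold, and 0 to 1 as mice were left out (Reln, without 2-week mouse 3, 8, 9 or 10 or saline mouse 1). For 6 weeks of recovery against 4 weeks of bleomycin the 0 became 1 (Vegfd) with a pseudocount of 0.1, a log2 threshold of 0.5, no threshold, TMM, edgeR or DESeq2, and 0 to 1 as mice were left out (4-week mouse 2, 4, 6, 8 or 10, or 6-week recovery mouse 2, 3, 5 or 6). For 10 weeks of recovery against 4 weeks of bleomycin 3 became 4 with no threshold (Pdpn) and 2 to 3 as mice were left out. Against saline and against 6 weeks, 10 weeks of recovery gave 0 throughout. The 18 correlated pairs became 12 with 42 mice. The causes were not tested. No called gene changed direction. The replicate block changed 1 of these counts, 6 weeks of recovery against saline, from 0 to 3 (Flt4, Prox1, Reln). The replicate numbers belong to different animals, and the sources used here describe no pairing by number. Deviations of same-numbered mice correlated at a median of 0.00 (-0.69 to 0.38 over 78 pairs), against 0.00 for other numbers. A median cannot decide whether some same-numbered mice were handled together. Depth limited Prox1 and Vegfc most, with as few as 20 and 30 reads.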
